A study of Homo sapiens with 9 samples.

Results

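The 10 genes described here encode RNA polymerase III (Pol III) subunits and the factors that recruit or restrain the enzyme. They were taken by name from a fixed list, namely POLR3A, POLR3B, POLR3C, POLR3D, POLR3E, POLR3F, POLR3G, BRF1, GTF3C1 and MAF1. All 10 were found among the 60664 Ensembl genes of the count table, and all 10 were among the 17207 genes abundant enough to be tested. The cells were Huh-7, a human hepatocellular carcinoma line, grown in complete medium without treatment. Wild type (WT) cells, cells with the VTRNA1-1 gene removed (1-1 KO) and cells with the VTRNA1-2 gene removed (1-2 KO) were compared, with 3 mRNA libraries per line. Both genes were removed with CRISPR/Cas9. WT and 1-1 KO cells came from another laboratory, and 1-2 KO was a single cell clone raised from the WT cells. Each genotype is thus represented by 1 line, and an effect of the lost vault RNA cannot be told apart from other differences between the lines. The study calls the libraries biological replicates, but no source used here says that they were separate cultures, so p-values measure the spread between these libraries, which may be partly technical.

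Pol III makes small noncoding RNAs, among them transfer RNAs, 5S ribosomal RNA, U6 small nuclear RNA and the vault RNAs (vtRNAs). At vtRNA and transfer RNA genes the promoter lies inside the transcribed sequence, as a box A and a box B. TFIIIC binds these boxes and places TFIIIB upstream of the start site, and TFIIIB then recruits the polymerase. MAF1 binds Pol III and represses it when nutrient signalling through mTORC1 is low. The removed genes are therefore templates of the apparatus whose own mRNAs were measured here.

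To show what this apparatus reads, the 3 genes of the VTRNA1 locus are given as the annotation lists them, on the plus strand of chromosome 5 in GRCh38. VTRNA1-1 runs from 140711275 to 140711373, VTRNA1-2 from 140718925 to 140719013 and VTRNA1-3 from 140726158 to 140726246. Capitals mark first the box A motif and then the box B motif, GTTCGANNC.
VTRNA1-1: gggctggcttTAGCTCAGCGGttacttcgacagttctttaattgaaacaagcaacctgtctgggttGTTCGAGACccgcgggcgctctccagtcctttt
VTRNA1-2: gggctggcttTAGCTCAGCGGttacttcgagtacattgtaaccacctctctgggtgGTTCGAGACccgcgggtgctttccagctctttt
VTRNA1-3: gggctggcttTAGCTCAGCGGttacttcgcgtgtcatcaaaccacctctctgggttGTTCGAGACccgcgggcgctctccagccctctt
Both motifs occurred once in each gene and were spelled identically, with box A starting at base 11. The bases between the boxes numbered 45 in VTRNA1-1 and 35 in the other two. In a global alignment, VTRNA1-2 was identical to VTRNA1-1 in 81.8% of the columns and to VTRNA1-3 in 87.8%. Among 35116 RefSeq promoter windows of 300 bases, 4.72% held the box A motif and 0.829% the box B letters on either strand.

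The study assessed the vtRNAs of the sequenced lines by northern blot, but the loss of the 2 templates cannot be checked in these libraries. For VTRNA1-1 a single count (1) was found, in WT replicate 1, and for VTRNA1-2 all 9 libraries had 0 counts. A count of 0 leaves room for up to 3 counts, which is between 0.0709 and 0.0951 CPM (counts per 1000000 counts of the normalized library size) depending on the library. Other Pol III transcripts were also near 0 in these mRNA libraries. RN7SK, RN7SL1, RN7SL2, RMRP, RPPH1, RNY3, RNY4, BCYRN1 and VTRNA2-1 had 0 counts in every library, and VTRNA1-3, RNY1 and RNU6ATAC had at most 2 counts in any library. The output of Pol III was thus not measured in these libraries, and all values below are mRNA levels of the apparatus.

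Library totals ran from 32384469 to 41782387 counts. The libraries of 1-1 KO differed least from each other, where pairs of libraries gave a chi-square of 2.04 to 3.37 for each degree of freedom over the tested genes. Pairs of WT libraries lay between 4.76 and 9.63. In 1-2 KO, replicates 2 and 3 gave 2.62, whereas replicate 1 gave 14.7 and 15.6 against them, so that 1-2 KO replicate 1 stands apart. The hepatocyte markers were abundant in all lines, with the 8 summing to between 12460 and 13230 CPM in WT, 27750 and 28650 CPM in 1-1 KO, and 19110 and 20930 CPM in 1-2 KO. Against WT, 7 of the 8 were called higher and 0 lower in 1-1 KO. In 1-2 KO they did not move together, with 4 higher and 2 lower. There AFP rose (log2 fold change 2.08) and ALB rose (0.90), whereas TTR (-0.64) and TF (-0.22) fell. The 7 markers of other cell types summed to between 14.6 and 19.5 CPM in every library, most of it from COL1A1, and KRT5 had at most 1 count. Within this sum, PECAM1, an endothelial marker, was at 7.57 CPM in WT, 6.67 CPM in 1-1 KO and 0.839 CPM in 1-2 KO, and PTPRC, a leukocyte marker, at 0.153, 0.522 and 0.998 CPM. Both kinds of marker thus differed between the lines in the same comparisons as the genes below, and their part in the results was not tested.

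Most of the 10 genes differed between the lines, by small amounts. In 1-1 KO compared to WT, 8 of 10 were called at an adjusted p under 0.05 in edgeR's quasi-likelihood test, 3 higher and 5 lower, where 63.4% of all tested genes were called (32.5% higher, 30.9% lower). In 1-2 KO compared to WT, 6 of 10 were called, 2 higher and 4 lower, where 54.4% of all tested genes were called (28.2% higher, 26.2% lower). Between 1-2 KO and 1-1 KO, 7 of 10 were called, 3 higher and 4 lower in 1-2 KO, beside 65.3% of all tested genes (33.1% higher, 32.2% lower). These shares do not set the 10 genes apart from the transcriptome of the lines. The 3 comparisons use the same libraries in pairs and are not independent.

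The changes were modest in size as well. The median absolute log2 fold change of the 10 genes was 0.325 in 1-1 KO and 0.286 in 1-2 KO, beside 0.352 and 0.273 over all tested genes. No member changed by more than 1 on the log2 scale in any comparison. The signed median was -0.127 in 1-1 KO and -0.0024 in 1-2 KO, beside 0.0108 and 0.0194 over all tested genes. The libraries of the 2 lines did not overlap for 7 members in 1-1 KO against WT, 6 in 1-2 KO against WT and 7 in 1-2 KO against 1-1 KO. The corresponding shares of all tested genes were 68.9%, 58.4% and 69.8%. Summed over the 10 genes, the level was 648 ± 9.70 CPM in WT, 598 ± 9.57 CPM in 1-1 KO and 626 ± 1.23 CPM in 1-2 KO (SD, n = 3 libraries), of which GTF3C1 alone supplied the largest part.

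**Figure D1:**
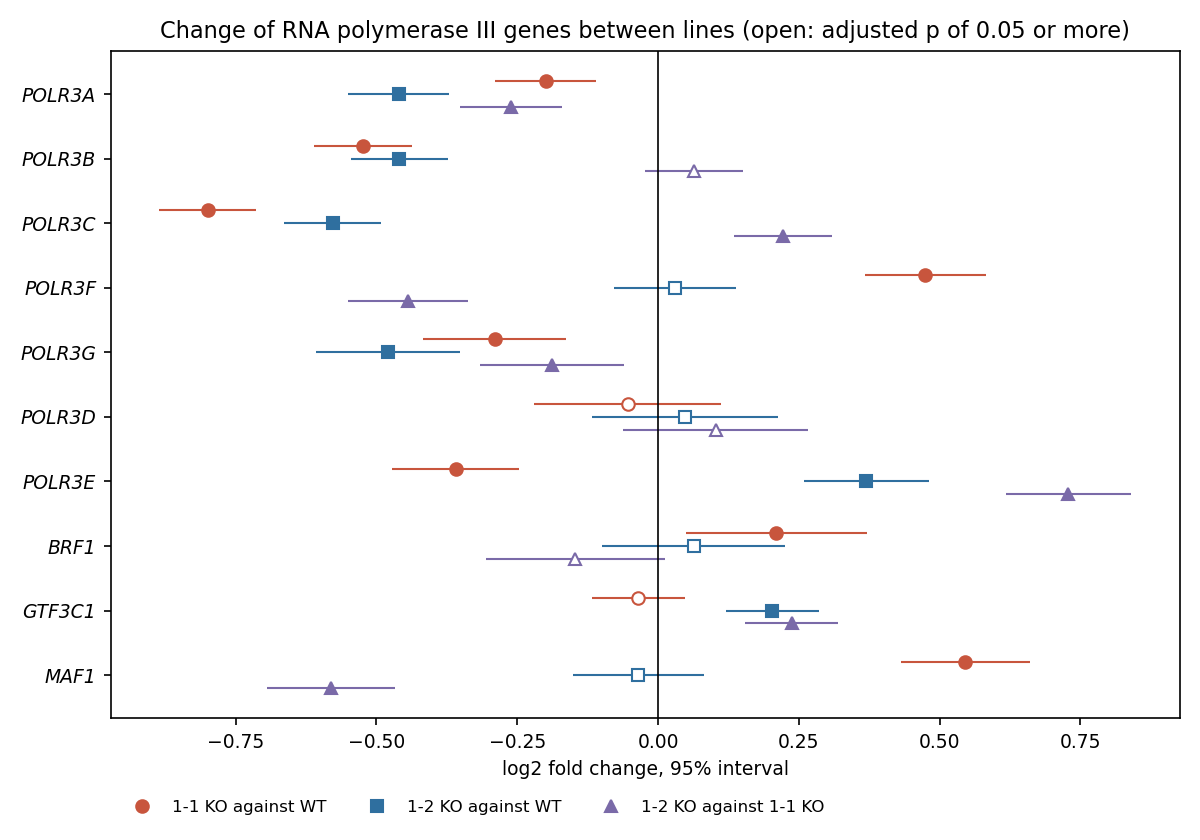
Log2 fold change with its 95% interval (x axis) of each of the 10 genes (y axis) in 1-1 KO against WT (circles), 1-2 KO against WT (squares) and 1-2 KO against 1-1 KO (triangles), open where the adjusted p is 0.05 or more. POLR3A, POLR3B, POLR3C and POLR3G lie left of 0 in both knockouts, POLR3E lies at -0.36 in 1-1 KO and 0.37 in 1-2 KO, and POLR3D has only open symbols.

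The 4 genes that fell in both knockouts were POLR3A, POLR3B, POLR3C and POLR3G, all of them subunits found only in Pol III. POLR3D, POLR3E and POLR3F, also found only in Pol III, did not fall in both. Among all tested genes, 13.4% were called lower in both. POLR3F, BRF1 and MAF1 rose in 1-1 KO and were not called in 1-2 KO. GTF3C1 rose in 1-2 KO and was not called in 1-1 KO. POLR3E fell in 1-1 KO and rose in 1-2 KO, where 11.7% of all tested genes had opposite calls, and POLR3D was not called in any comparison. Both knockouts were set against the same 3 WT libraries, so a fall in both is not 2 independent observations.

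The catalytic core is formed by POLR3A and POLR3B, the largest subunits, which together hold the active centre. POLR3A (ENSG00000148606, chromosome 10, 77953148 to 78029522, minus strand) was at 96.8, 94.3 and 96.1 CPM in the WT libraries, 83.2, 84.5 and 82.3 CPM in 1-1 KO, and 64.8, 72.6 and 71.3 CPM in 1-2 KO. The 3 lines did not overlap, with WT highest and 1-2 KO lowest. POLR3A fell in 1-1 KO (log2 fold change -0.20 with a standard error of 0.04, adjusted p = 0.000776 in edgeR) and in 1-2 KO (-0.46 with a standard error of 0.04, adjusted p = 4.27e-07 in edgeR). It was also lower in 1-2 KO than in 1-1 KO, by a log2 fold change of -0.26 (adjusted p = 7.52e-05 in edgeR).

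POLR3B (ENSG00000013503, chromosome 12, 106357748 to 106510198, plus strand) was at 77.5, 80.3 and 76.5 CPM in WT, 53.8, 55.3 and 53.9 CPM in 1-1 KO, and 54.0, 58.5 and 58.0 CPM in 1-2 KO. All knockout libraries lay below all WT libraries, and the knockouts overlapped each other. The gene fell 1.44-fold in 1-1 KO (adjusted p = 5.15e-08 in edgeR) and 1.38-fold in 1-2 KO (adjusted p = 2.77e-07 in edgeR). Between the knockouts the log2 difference was 0.06 with a 95% interval from -0.02 to 0.15 (adjusted p = 0.177 in edgeR). Without 1-2 KO replicate 1 it was 0.10 and passed the test (adjusted p = 0.0371 in edgeR).

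POLR3C, POLR3F and POLR3G form a heterotrimer that is bound to the core and is needed for opening the promoter and starting transcription. Their mRNAs did not move together. POLR3C (ENSG00000186141, chromosome 1, 145824053 to 145844402, plus strand) showed the largest fall of the 10 genes in each knockout. It was at 51.2, 52.1 and 52.4 CPM in WT, 29.8, 29.5 and 30.1 CPM in 1-1 KO, and 34.1, 34.7 and 35.4 CPM in 1-2 KO. The lines were far apart compared with the spread within a line, which did not exceed an SD of 0.685 CPM. POLR3C fell 1.74-fold in 1-1 KO (log2 fold change -0.80 with a standard error of 0.04, adjusted p = 6.31e-10 in edgeR) and 1.49-fold in 1-2 KO (-0.58 with a standard error of 0.04, adjusted p = 2.20e-08 in edgeR). It was 1.17-fold higher in 1-2 KO than in 1-1 KO (adjusted p = 0.000240 in edgeR).

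POLR3F (ENSG00000132664, chromosome 20, 18466878 to 18484648, plus strand) went the other way in 1-1 KO. Its level was 34.9, 37.6 and 32.6 CPM in WT, 48.8, 48.5 and 48.9 CPM in 1-1 KO, and 35.0, 36.6 and 35.9 CPM in 1-2 KO. Only the 1-1 KO libraries stood apart, above all others, and those of WT and 1-2 KO overlapped. POLR3F rose 1.39-fold in 1-1 KO compared to WT (log2 fold change 0.47 with a standard error of 0.05, adjusted p = 1.36e-06 in edgeR). In 1-2 KO its log2 difference from WT was 0.03 with a 95% interval from -0.08 to 0.14 (adjusted p = 0.639 in edgeR). Compared directly, it was 1.36-fold lower in 1-2 KO than in 1-1 KO (adjusted p = 2.16e-06 in edgeR).

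POLR3G (ENSG00000113356, chromosome 5, 90471748 to 90514557, plus strand) is known for its high level in stem cells and many tumours, whereas its paralog POLR3GL occupies the same place in the enzyme in most differentiated cells. POLR3G was at 27.1, 29.3 and 26.5 CPM in WT, 22.2, 21.6 and 24.0 CPM in 1-1 KO, and 19.1, 20.3 and 20.0 CPM in 1-2 KO. The lines did not overlap, with WT highest. It fell in 1-1 KO (log2 fold change -0.29 with a standard error of 0.06, adjusted p = 0.000627 in edgeR) and in 1-2 KO (-0.48 with a standard error of 0.06, adjusted p = 9.61e-06 in edgeR). The step between the knockouts, 1.14-fold (adjusted p = 0.0125 in edgeR), was lost without 1-1 KO replicate 3 (adjusted p = 0.0676 in edgeR). The exons of POLR3G share 260 bases with MBLAC2 on the opposite strand, and whether the counting used the strand is not given in the sources used here.

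POLR3GL (chromosome 1, 145964690 to 145978848) also fell in both knockouts, from 11.2 CPM in WT to 8.92 CPM in 1-1 KO (log2 fold change -0.33, adjusted p = 0.00245 in edgeR) and 9.05 CPM in 1-2 KO (-0.31, adjusted p = 0.00483 in edgeR). Per kilobase of the canonical transcript, the ratio of POLR3G to POLR3GL was 0.882 ± 0.0116 in WT, 0.910 ± 0.0423 in 1-1 KO and 0.785 ± 0.0433 in 1-2 KO (SD, n = 3 libraries). The 1-2 KO libraries, from 0.735 to 0.810, lay below all others, and those of WT and 1-1 KO overlapped. This ratio was not tested. With the length of all merged exons, the mean ratio was 1.11, 1.15 and 0.988, so that which paralog was more abundant per length in WT and 1-1 KO depended on the length used.

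POLR3D and POLR3E form a heterodimer that assists in promoter opening, termination and reinitiation. POLR3D (ENSG00000168495, chromosome 8, 22245133 to 22254601) was at 38.1, 34.5 and 38.5 CPM in WT, 36.6, 36.0 and 34.3 CPM in 1-1 KO, and 43.9, 34.5 and 36.3 CPM in 1-2 KO. The libraries of all lines overlapped, and 1-2 KO replicate 1 was the highest of the 9. The log2 difference from WT was -0.05 in 1-1 KO (95% interval from -0.22 to 0.11, adjusted p = 0.559 in edgeR) and 0.05 in 1-2 KO (95% interval from -0.12 to 0.21, adjusted p = 0.621 in edgeR). Without 1-2 KO replicate 1, the latter was -0.06. Between the knockouts the difference was 0.10 (95% interval from -0.06 to 0.27, adjusted p = 0.256 in edgeR).

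POLR3E (ENSG00000058600, chromosome 16, 22297375 to 22335101, plus strand) was the only member with opposite calls in the knockouts. It was at 59.1, 58.2 and 62.9 CPM in WT, 46.8, 45.9 and 47.8 CPM in 1-1 KO, and 84.3, 73.7 and 74.6 CPM in 1-2 KO. The lines did not overlap, with 1-1 KO lowest, WT between and 1-2 KO highest. POLR3E fell in 1-1 KO (log2 fold change -0.36 with a standard error of 0.05, adjusted p = 3.46e-05 in edgeR) and rose in 1-2 KO (0.37 with a standard error of 0.05, adjusted p = 2.86e-05 in edgeR). The direct comparison gave a 1.66-fold higher level in 1-2 KO (log2 fold change 0.73 with a standard error of 0.05, adjusted p = 1.85e-08 in edgeR). This was the largest difference between the knockouts among the 10 genes, and with each library left out in turn it stayed between 0.67 and 0.76 on the log2 scale.

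The promoters of POLR3A, POLR3C and POLR3E are shown because they hold an E-box, CACGTG, the motif bound by MYC and related factors, which are known activators of genes of the Pol III apparatus. RefSeq windows (GRCh38.p14, from 250 bases before to 50 after a start site) were searched for 7 of the members, with 13 windows in all. No window of POLR3D, POLR3G or MAF1 was among them, so the motif counts do not cover these genes. That they lack RefSeq windows is not implied. The letters were searched on both strands and are in capitals, as are those of the box B motif GTTCGANNC, and each sequence reads in the direction of its gene. The windows are chr10:78029466-78029765 for POLR3A on the minus strand, chr1:145823950-145824249 for POLR3C and chr16:22297159-22297458 for POLR3E, both on the plus strand.
POLR3A: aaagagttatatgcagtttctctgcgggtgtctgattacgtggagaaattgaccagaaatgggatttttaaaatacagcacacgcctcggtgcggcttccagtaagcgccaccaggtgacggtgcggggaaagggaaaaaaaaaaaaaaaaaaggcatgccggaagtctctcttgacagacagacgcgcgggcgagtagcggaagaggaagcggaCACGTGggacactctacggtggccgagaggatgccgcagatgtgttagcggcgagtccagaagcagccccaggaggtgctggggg
POLR3C: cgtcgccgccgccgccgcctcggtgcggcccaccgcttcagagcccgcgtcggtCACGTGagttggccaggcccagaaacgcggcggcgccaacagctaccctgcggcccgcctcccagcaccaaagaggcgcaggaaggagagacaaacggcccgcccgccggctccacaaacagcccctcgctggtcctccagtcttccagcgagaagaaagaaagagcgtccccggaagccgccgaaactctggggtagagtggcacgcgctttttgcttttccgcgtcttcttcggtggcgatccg
POLR3E: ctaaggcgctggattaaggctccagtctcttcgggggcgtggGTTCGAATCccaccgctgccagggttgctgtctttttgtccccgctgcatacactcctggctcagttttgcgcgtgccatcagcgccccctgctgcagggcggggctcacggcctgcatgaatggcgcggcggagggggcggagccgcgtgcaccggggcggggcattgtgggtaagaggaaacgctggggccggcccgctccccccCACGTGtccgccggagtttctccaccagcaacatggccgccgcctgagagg
The E-box lay in 3 of the 13 windows, with 1 each in these genes and none in the second window of POLR3C, beside 7.26% of all 35116 windows. Counted from the start site, with -1 as the last base before it, the E-box began at -35 in POLR3A, -196 in POLR3C and -1 in POLR3E. The window of POLR3E was also the only one of the 13 with the box B letters, which are held by 0.829% of all windows. These letters lie toward the upstream end of that window, away from the start site. Whether they belong to POLR3E or to another gene was not tested. The box A motif occurred in POLR3A, where it is not in capitals, and in BRF1. Of the other motifs searched on both strands, CCAAT (34.6% of all windows) occurred in BRF1, GTF3C1, POLR3B and POLR3C, the ETS motif CCGGAAG (10.3%) in GTF3C1, POLR3A and POLR3C, and the NRF1 motif (5.78%) in GTF3C1 and POLR3B. TATAAA (11.5%) and the YY1 motif (0.849%) occurred in none of the 13 windows searched. POLR3A, POLR3C and POLR3E differed in how they moved, since POLR3A and POLR3C fell in both knockouts and POLR3E went opposite ways. MYC, named after its values were seen, was at 56.4 CPM in WT, 55.2 CPM in 1-1 KO (adjusted p = 0.693 in edgeR) and 52.3 CPM in 1-2 KO (adjusted p = 0.15 in edgeR).

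BRF1 is the TFIIIB subunit specific to genes with internal promoters, and it bridges TFIIIC, the TATA-binding protein and the polymerase. BRF1 (ENSG00000185024, chromosome 14, 105209286 to 105315589, minus strand) was at 16.6, 16.0 and 19.5 CPM in WT, with 20.6, 20.4 and 19.1 CPM in 1-1 KO and 19.3, 17.8 and 17.3 CPM in 1-2 KO. WT replicate 3 lay above 1-1 KO replicate 3, so that the lines overlapped. Its rise in 1-1 KO (log2 fold change 0.21 with a standard error of 0.07, adjusted p = 0.0245 in edgeR) was lost without WT replicate 1 (adjusted p = 0.0893 in edgeR), WT replicate 2 (0.120), 1-1 KO replicate 1 (0.0814) or 1-1 KO replicate 2 (0.0704). In 1-2 KO the log2 difference was 0.06 (95% interval from -0.10 to 0.22, adjusted p = 0.505 in edgeR). Between the knockouts it was -0.15 (adjusted p = 0.0967 in edgeR), and this passed the test without WT replicate 3 (0.0276) or 1-2 KO replicate 1 (0.0373) and in a fit of these 2 lines only (0.0321). Of the exon bases of BRF1, 4.90% are shared with BTBD6 and 3.22% with PACS2, both on the opposite strand.

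GTF3C1 encodes the largest TFIIIC subunit, which takes part in box B recognition. GTF3C1 (ENSG00000077235, chromosome 16, 27459555 to 27549913, minus strand) was at 207, 203 and 218 CPM in WT, 203, 212 and 198 CPM in 1-1 KO, and 235, 244 and 244 CPM in 1-2 KO. The 1-2 KO libraries lay above all others, while WT and 1-1 KO overlapped. The rise in 1-2 KO was 1.15-fold (log2 fold change 0.20 with a standard error of 0.04, adjusted p = 0.000458 in edgeR). In 1-1 KO the log2 difference was -0.03 (95% interval from -0.12 to 0.05, adjusted p = 0.450 in edgeR). Set against each other, the knockouts differed by 0.24 on the log2 scale, with 1-2 KO higher (adjusted p = 8.10e-05 in edgeR).

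MAF1, the repressor, rose in 1-1 KO. MAF1 (ENSG00000179632, chromosome 8, 144104461 to 144107611) was at 35.5, 35.2 and 35.7 CPM in WT, 50.2, 54.4 and 50.7 CPM in 1-1 KO, and 37.3, 32.5 and 34.0 CPM in 1-2 KO. The 1-1 KO libraries lay above all others, and 1-2 KO libraries lay on both sides of those of WT. The rise in 1-1 KO was 1.46-fold (log2 fold change 0.55 with a standard error of 0.05, adjusted p = 6.18e-07 in edgeR), and in 1-2 KO the log2 difference from WT was -0.04 (95% interval from -0.15 to 0.08, adjusted p = 0.609 in edgeR). Between the knockouts, MAF1 was lower in 1-2 KO by a log2 fold change of -0.58 (adjusted p = 2.56e-07 in edgeR). MAF1 activity is controlled mainly by phosphorylation, which these libraries do not measure.

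Levels can be ordered between genes only per length. In WT, as CPM per kilobase of the canonical transcript, GTF3C1 was highest at 29.5 ± 1.10, followed by MAF1 at 20.7 ± 0.138, POLR3B at 18.7 ± 0.470, POLR3E at 16.3 ± 0.684, POLR3F at 16.3 ± 1.16, POLR3A at 14.5 ± 0.198, POLR3C at 13.7 ± 0.166, POLR3G at 8.40 ± 0.452, POLR3D at 6.93 ± 0.414 and BRF1 at 4.74 ± 0.505 (SD, n = 3 libraries). Among neighbours in this order, only POLR3E and POLR3F overlapped. With the merged exons as length, which include rarely used exons, GTF3C1 stayed first and BRF1 last, but POLR3B moved above MAF1, POLR3G rose to the fourth place, and POLR3G overlapped POLR3D and POLR3D overlapped POLR3E.

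Further subunits found only in Pol III include the stalk protein CRCP, the cleavage subunit POLR3K, and POLR3GL. These 3 fell in 1-1 KO, and CRCP fell most, from 139 CPM in WT to 83.9 CPM (log2 fold change -0.73, adjusted p = 3.68e-10 in edgeR). POLR3K had a log2 fold change of -0.30 in 1-1 KO (adjusted p = 5.50e-05 in edgeR). In 1-2 KO, CRCP fell to 92.2 CPM (log2 fold change -0.59, adjusted p = 3.88e-09 in edgeR) and POLR3GL fell as described. POLR3K, at 44.3 CPM in WT, had 42.1 CPM in 1-2 KO (adjusted p = 0.175 in edgeR). Over all tested genes, 30.9% were called lower in 1-1 KO and 26.2% in 1-2 KO.

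Of 7 subunits that Pol III shares with other polymerases, the 1-1 KO line had 1 higher and 3 lower and the 1-2 KO line 0 higher and 6 lower, with medians of -0.0947 and -0.425 on the log2 scale. Over all tested genes, 32.5% were called higher and 30.9% lower in 1-1 KO, and 28.2% and 26.2% in 1-2 KO. POLR2E, part of all 3 nuclear polymerases, fell from 177 to 124 CPM in 1-2 KO (log2 fold change -0.51, adjusted p = 7.05e-08 in edgeR) and was at 187 CPM in 1-1 KO (adjusted p = 0.0900 in edgeR). POLR2K rose in 1-1 KO (0.34, adjusted p = 2.81e-05 in edgeR) and fell in 1-2 KO (-0.43, adjusted p = 4.75e-06 in edgeR).

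Of the other TFIIIB genes, BRF2, which replaces BRF1 at genes with upstream promoters, rose 1.35-fold in 1-1 KO (adjusted p = 1.25e-05 in edgeR) and had a log2 difference of 0.01 in 1-2 KO (adjusted p = 0.901 in edgeR). BDP1, the third TFIIIB protein, fell in both knockouts, by 0.20 (adjusted p = 0.00282 in edgeR) and 0.17 (adjusted p = 0.0114 in edgeR) on the log2 scale. TBP, the TATA-binding protein, fell in 1-2 KO (-0.26, adjusted p = 0.00343 in edgeR) and had a log2 difference of -0.13 in 1-1 KO (adjusted p = 0.0892 in edgeR).

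The next 2 lists are to be read beside all tested genes. Of these, 63.4% were called in 1-1 KO (32.5% higher, 30.9% lower) and 54.4% in 1-2 KO (28.2% higher, 26.2% lower). Of 6 further TFIIIC and TFIIIA genes, the 1-1 KO line had 2 higher and 3 lower, and the 1-2 KO line 2 higher and 1 lower. GTF3C3 rose in 1-1 KO (log2 fold change 0.37, adjusted p = 4.99e-06 in edgeR) and GTF3C6 fell in 1-2 KO (-0.35, adjusted p = 6.65e-05 in edgeR). The SNAP complex serves Pol III genes with upstream promoters, such as U6. Of its 5 genes with ZNF143 and POU2F1, the 1-1 KO line had 0 higher and 3 lower, and the 1-2 KO line 1 of each. SNAPC5 fell in both, from 50.1 CPM to 35.3 CPM (adjusted p = 4.71e-07 in edgeR) and 33.8 CPM (adjusted p = 2.03e-07 in edgeR).

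Together, these 26 other genes of the apparatus had 4 higher and 13 lower calls in 1-1 KO, which is 65.4% called, with a median log2 fold change of -0.140. In 1-2 KO, 3 were higher and 12 lower, with a median of -0.116, which is 57.7% called beside 54.4% of all tested genes. For comparison, 9 of 12 genes of the Pol I machinery were called in 1-1 KO (2 higher, 7 lower, median -0.216) and 6 of 12 in 1-2 KO (2 higher, 4 lower, median -0.0751). Of 7 subunits found only in Pol II, 4 were called in 1-1 KO (1 higher, 3 lower, median -0.0436) and 2 in 1-2 KO (0 higher, 2 lower, median -0.0279). These counts stand beside the same shares of all tested genes. The lists were not tested against each other or against all tested genes.

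**Figure D2:**
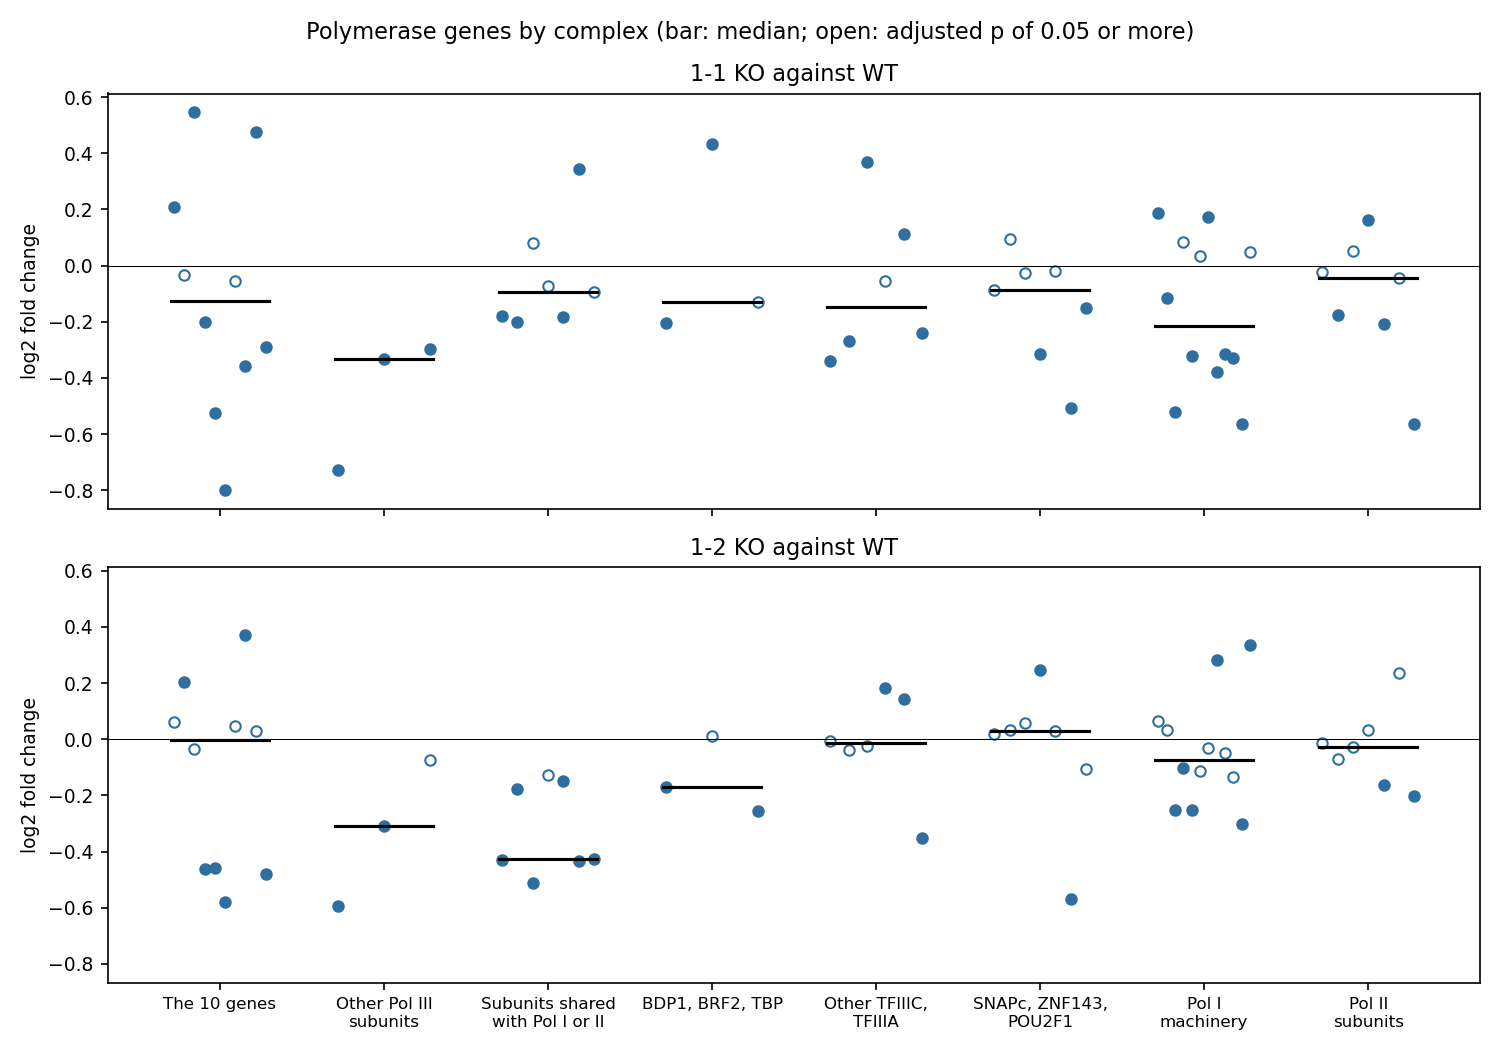
Log2 fold change against WT (y axis) of the genes of each complex (x axis) in 1-1 KO (upper panel) and 1-2 KO (lower panel), 1 point per gene in alphabetical order, with the median as a bar and open points where the adjusted p is 0.05 or more. The subunits shared with Pol I or Pol II have a median of -0.425 in 1-2 KO and -0.0947 in 1-1 KO, and the 3 further Pol III subunits lie below 0 in both panels.

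Over all tested genes, 63.4% were called in 1-1 KO (32.5% higher, 30.9% lower) and 54.4% in 1-2 KO (28.2% higher, 26.2% lower). Beside these shares, proteins that bind Pol III transcripts and regulators of the system were counted as well. Of the former, SSB, RO60, LARP7 and MEPCE, 3 fell in 1-1 KO and 2 in 1-2 KO, and 0 rose. MEPCE, the capping enzyme of 7SK RNA, fell in 1-1 KO (log2 fold change -0.35, adjusted p = 7.60e-06 in edgeR), and LARP7, its partner on 7SK, fell in 1-2 KO (-0.20, adjusted p = 0.00543 in edgeR). Of 7 regulators, the 1-1 KO line had 1 of each, and the 1-2 KO line 2 higher and 1 lower. CSNK2A1, a catalytic subunit of casein kinase 2, fell in 1-1 KO (-0.44, adjusted p = 9.17e-08 in edgeR), and CSNK2B, its regulatory subunit, fell in 1-2 KO (-0.40, adjusted p = 0.000431 in edgeR).

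The position of the genes was then set beside their changes. Each gene was paired with the median change of the 25 tested genes on either side along the chromosome. In 1-1 KO all 10 members had the same sign as their neighbours, in 1-2 KO 9 of 10 did, and between the knockouts 7 of 10 did. Over all tested genes with a position, the gene and its neighbours had the same sign for 65.4% in 1-1 KO, 62.7% in 1-2 KO and 66.1% between the knockouts. Among called genes only, these shares were 71.1%, 69.0% and 71.6%, beside 8 of 8, 6 of 6 and 5 of 7 called members. The neighbours of MAF1 had a median of 0.57 in 1-1 KO, beside 0.55 for MAF1 itself, and those of POLR3A -0.19 beside -0.20. The neighbours of POLR3G were at -0.36 beside -0.29, and those of BRF1, where the chromosome end left 35 genes, at 0.38 beside 0.21. Other members lay further from their surroundings in 1-1 KO. POLR3C was at -0.80 beside -0.34 and POLR3B at -0.52 beside -0.15. POLR3E was at -0.36 beside -0.07 and POLR3F at 0.47 beside 0.16. In 1-1 KO, 5 of 10 members lay within 0.15 of their neighbours, beside 28.5% of all tested genes with a position.

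In 1-2 KO, POLR3A was at -0.46 beside -0.09 for its neighbours, and POLR3B at -0.46 beside -0.18. POLR3C was at -0.58 beside -0.22, and POLR3G at -0.48 beside -0.22. These 4 genes were named because they were called, and a median over many genes varies less than a single gene. Their distance from the neighbours thus says nothing particular about them. In 1-2 KO, 3 of 10 members lay within 0.15 of their neighbours, beside 33.2% of all tested genes with a position. POLR3E and GTF3C1, both on the short arm of chromosome 16, rose by 0.37 and 0.20 where their neighbours were at 0.07 and 0.07. MAF1 was the member with the opposite sign, at -0.04 beside 0.26. Across the 10 members, Pearson's r between the gene and its neighbours was 0.84 in 1-1 KO, 0.75 in 1-2 KO and 0.65 between the knockouts. It was 0.77, 0.62 and 0.54 over the 36 genes of the apparatus, and 0.30, 0.20 and 0.29 over all 17171 tested genes with a position. By ranks, Spearman's rho over all these genes was 0.40, 0.32 and 0.41. Extreme changes weigh on Pearson's r, and no rank correlation was taken over the members. Why r differed between these sets was not tested. In 1-1 KO the log2 fold change ran from -9.68 to 12.92 over all tested genes and from -0.80 to 0.55 over the members. These are correlations across genes of the same libraries, genes close together share neighbours, and genes are not independent replicates. The part of the neighbourhood in the changes of the members was not tested.

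For each member, the tested gene with the most similar profile over the 9 libraries was found as the one with the smallest root mean square difference of centred log2 CPM. These genes were BMS1 for POLR3A (difference 0.0197), MKI67 for POLR3B (0.0205), GPCPD1 for POLR3C (0.0277), PPIL3 for POLR3F (0.0302), TRIM23 for POLR3G (0.0347), PSMD3 for POLR3D (0.0495), IQSEC1 for POLR3E (0.0536), HGS for BRF1 (0.0365), DIAPH1 for GTF3C1 (0.0241) and P4HB for MAF1 (0.0447). No member was the nearest gene of another. BMS1 lies on chromosome 10 like POLR3A, and TRIM23 on chromosome 5 like POLR3G, whereas the nearest genes of the other 8 lie on other chromosomes. Such likeness was common with only 3 lines, since between 95 and 896 genes came within a difference of 0.1 of a member.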

How the data were processed

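Stranded mRNA libraries of 3 Huh-7 lines, with 3 libraries each, were sequenced by the authors. Per the submitters' processing notes and the methods, reads were aligned with STAR to GRCh38 (hg38) and counted per gene with featureCounts, and the authors deposited the read counts without normalization or filter. Strand use, multi-mapping reads and tool versions are not given in the sources used here, so overlapping genes may share counts. Positions and lengths came from GENCODE 44 on GRCh38, which held 60463 of the 60664 identifiers. RNY5 was not matched and is not analysed here, and 1 further gene is not reported here.

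The members and lists were chosen with earlier results of these data known. Counts were filtered with filterByExpr (minimum count 10, minimum total 15), normalized by TMM and tested with the quasi-likelihood test of edgeR 4.0.16 in R 4.3.3. The 3 lines were fitted together, with all 9 libraries, and p-values were Benjamini-Hochberg adjusted over 17207 genes, with a threshold of 0.05. The standard error is the absolute log2 fold change divided by the square root of F. The biological coefficient of variation was 5.55%. The steps were tested on simulated data. All members are named, as are CRCP, POLR3K, POLR3GL, BDP1, BRF2, TBP, for each other Pol III list the gene of lowest adjusted p in either knockout, and the nearest gene of each member. The alternatives were DESeq2 1.42.0, other scalings and filters, fits of the 2 groups compared, a replicate term, a threshold of 0.01 and leaving out each library. The canonical transcript length was added after the data were examined. Intervals and floors cover counting error or the spread between libraries only.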

Additional observations from a re-analysis of the deposited data

Results flagged for a closer look

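For 7 of the 10 genes the change from WT differed between the knockouts, by the direct test of 1-2 KO against 1-1 KO in edgeR at an adjusted p under 0.05, beside 65.3% of all tested genes. The log2 differences, 1-2 KO minus 1-1 KO, were 0.73 for POLR3E, 0.24 for GTF3C1 and 0.22 for POLR3C, and -0.58 for MAF1, -0.44 for POLR3F, -0.26 for POLR3A and -0.19 for POLR3G. POLR3E was the only one of these with calls of opposite direction against WT. For POLR3C, POLR3A and POLR3G the knockouts moved the same way from WT and differed in size.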

How the results depend on the processing

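The numbers of members called higher or lower stayed within 1.5 times of those reported under every alternative that was run. With each library left out in turn, 2 to 3 members were higher and 5 lower in 1-1 KO, 2 were higher and 4 lower in 1-2 KO, and 3 to 4 were higher and 3 to 5 lower in 1-2 KO against 1-1 KO. Of 540 single values, 521 kept their direction and their side of the threshold, 8 lost the call, 4 gained it and 7 changed sign. The calls that were lost were those of BRF1 in 1-1 KO, also with DESeq2 on the 2 groups compared (adjusted p = 0.0520), and of POLR3G between the knockouts. None of the 7 values that changed sign had passed the test, and the cause was not tested. With library size alone, the log2 fold change became 0.0158 for GTF3C1 in 1-1 KO and 0.0208 for MAF1 in 1-2 KO. The others changed sign without 1 library, which was WT replicate 2 (POLR3D, -0.0017), WT replicate 3 (POLR3F) or 1-2 KO replicate 2 (MAF1) in 1-2 KO against WT, and 1-2 KO replicate 1 for POLR3D in 1-2 KO against either line. With each library left out, 1-2 KO against WT ran from -0.0632 to 0.117 for POLR3D, -0.0372 to 0.0831 for POLR3F and -0.0923 to 0.0089 for MAF1, and POLR3D between the knockouts from -0.0088 to 0.172. Replicate numbers are shared by the lines but did not pair the libraries, since the correlation of same-numbered libraries' deviations was between -0.187 and 0.0474. Between libraries with different numbers it ran from -0.142 (WT replicate 3, 1-2 KO replicate 2) to 0.237 (WT replicate 3, 1-2 KO replicate 1). The source of this likeness was not tested. With a replicate block, 3 members were higher and 5 lower in 1-1 KO and 2 higher and 4 lower in 1-2 KO, and the block changed no call. Only 1 line per genotype and 3 libraries per line limit what these values can show, and the SD of BRF1, at 10.7% of its mean in WT, was the largest of the members there.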
